A study of Mus musculus with 8 samples.

Results

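The subject is knockout mouse skin labelled with alloferon and without imiquimod, compared with control skin of the same strain. The comparison uses 3 of the 8 arrays in the series, the array titled KO_Allo, set against KO_CTRL and KO_CTRL-B. All 3 hold RNA from the dorsal skin of male mice of the strain B6.Cg-Il22ra1tm1.1Koll/J, which carries a targeted allele of Il22ra1, the gene of the IL-22 receptor alpha chain. KO_Allo differs from the controls, by its title, in alloferon. The labels carry the same imiquimod protocol on all 8 arrays, so that KO_Allo skin had no imiquimod rests on its title alone. The other arrays are KO_IMQ_Allo, KO_IMQ and KO_IMQ_B of the same strain, and WT_IMQ and WT_CTRL of C57BL/6 males. In the protocols, IMQ skin had 83.3 mg of Aldara cream (5% imiquimod) each day on days 1 to 7, and vehicle or alloferon cream came 6 hours after it. Whether the KO_CTRL skin had vehicle cream, and what the letter B stands for, is not stated there. The design states 4 mice per group, but whether an array pools mice is not given either. The 2 controls may therefore differ less, or more, than separate animals would. The sources used here do not say whether the allele is conditional or which cells lost it, so KO is used as in the titles.

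Alloferon is a peptide first isolated from the blood of insect larvae and described as a stimulant of natural killer cells and of interferon production. Imiquimod activates a Toll-like receptor and produces psoriasis-like inflammation in mouse skin, in which keratinocytes divide faster, cornify differently and attract neutrophils. The IL-22 receptor sits on epithelial cells and signals through STAT3. In keratinocytes it is known to raise antimicrobial proteins and the wound keratins. By its title, the KO_Allo array bears on skin given the peptide without the inflammatory cream, in a strain with a targeted allele of the IL-22 receptor gene.

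Skin identity was checked first. Krt10, the suprabasal keratin, read 12.91 on KO_Allo, against 12.67 on KO_CTRL and 12.54 on KO_CTRL-B (log2 expression values, as everywhere below). Krt14, the basal keratin, read 12.01 on KO_Allo, against 10.97 on KO_CTRL and 11.23 on KO_CTRL-B. Both were among the brightest genes of the array. Il22ra1 itself read 8.92 on KO_Allo, against 8.91 on KO_CTRL and 8.59 on KO_CTRL-B, with 8.64 on WT_IMQ and 8.23 on WT_CTRL. The probe set may lie outside the deleted stretch, so the level is no check of the genotype. The title of KO_Allo was set beside genes known to respond to imiquimod. The median of 4 hyperproliferation keratins was 11.08 on KO_Allo, against 6.99 on KO_CTRL and 8.65 on KO_CTRL-B, while the imiquimod arrays spanned 11.65 to 12.32. KO_Allo thus stood nearer to the imiquimod arrays than to the controls for these keratins, 3 of which lay outside both controls by the rule given below. Krt17, also in the list, read lower on WT_IMQ (9.53) than on WT_CTRL (10.02). For 16 injury-induced envelope genes the median was nearer to the controls. It was 5.65 on KO_Allo, 4.80 on KO_CTRL and 5.14 on KO_CTRL-B, and 8.33 to 9.42 on the imiquimod arrays. Whether KO_Allo skin met imiquimod was not tested. Every KO_Allo value below is that of the array so titled.

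With 1 array against 2, the yardstick was the difference between the controls. The gap of a gene is the distance of KO_Allo from the nearer control, and it is 0 where KO_Allo lies between them. A gene was counted as outside both controls where the gap was at least 1 log2 unit (2-fold) and larger than the KO_CTRL-B minus KO_CTRL difference. Of 22180 genes, 65 lay outside on the higher side (0.293%) and 15 on the lower side (0.0676%). At any size of gap, KO_Allo read higher than both controls for 7182 genes (32.4%), lower than both for 6809 (30.7%) and between them for 8189 (36.9%). KO_CTRL-B was nearer to KO_Allo than to KO_CTRL, and 48 of the 65 higher genes also read higher on KO_CTRL-B than on KO_CTRL (51.7% of all genes did). By 1 log2 unit or more, 699 genes differed between KO_Allo and KO_CTRL and 276 between KO_Allo and KO_CTRL-B, while 631 differed between the controls themselves. In limma's test over all 8 arrays 0 genes passed an adjusted p of 0.05 (percent called 0.0). The smallest adjusted p was 0.168 (Sprr1b), and 1062 genes (4.79%) had an unadjusted p under 0.05. No gene below is thus called changed, and each is described by its values.

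**Figure D1:**
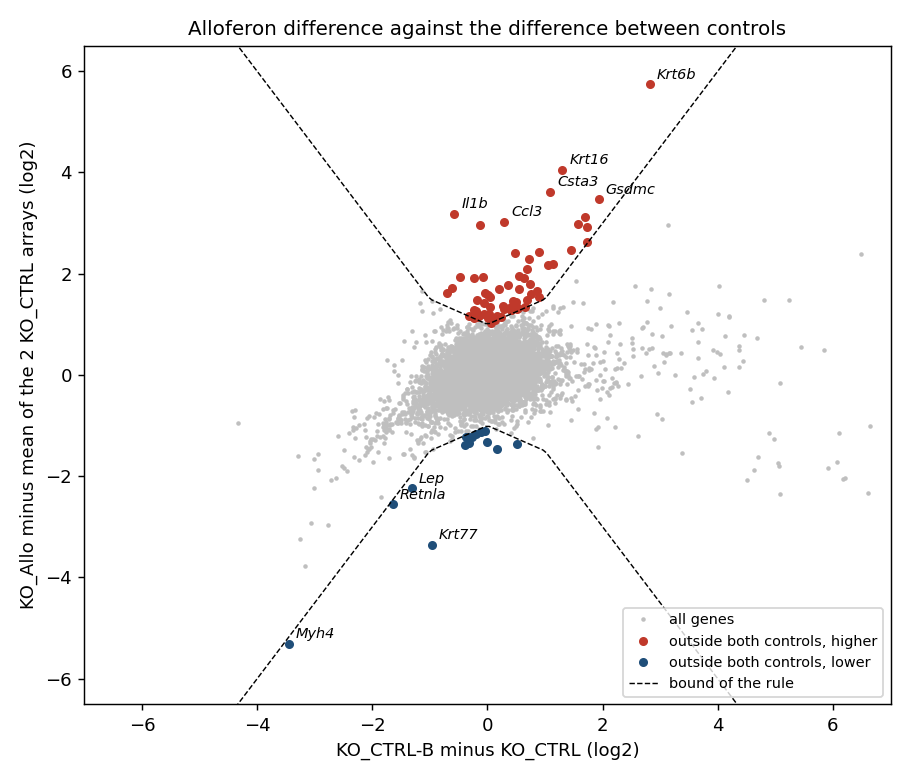
Each point is 1 of 22180 genes. The horizontal axis is KO_CTRL-B minus KO_CTRL and the vertical axis KO_Allo minus the mean of the 2 controls, both in log2 units. Red marks the 65 genes outside both controls on the higher side, blue the 15 on the lower side, and the dashed lines the bound that the gap rule draws. Krt6b stands alone at the top, and the genes spread far to the right along the horizontal axis, where the controls differ by several log2 units, stay inside the bound.

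The epidermal genes of wounded and hyperproliferative skin held the largest gaps. Krt6b, a keratin that interfollicular epidermis makes after injury, read 11.83 on KO_Allo, against 4.67 on KO_CTRL and 7.49 on KO_CTRL-B. Krt16, its usual pairing partner, read 10.59 on KO_Allo, against 5.89 on KO_CTRL and 7.19 on KO_CTRL-B. Krt6a read 11.57 on KO_Allo, against 8.09 on KO_CTRL and 9.81 on KO_CTRL-B. KO_Allo was the highest of the 3 arrays for each, by 4.34, 3.40 and 1.76 log2 units over the nearer control, and KO_CTRL-B stood above KO_CTRL in all 3. The fourth keratin of the list, Krt17, which hair follicles also make, read 10.19 on KO_Allo, against 9.55 on KO_CTRL and 10.25 on KO_CTRL-B, and so lay between the controls. The fitted KO_Allo minus KO_CTRL difference was 5.75 ± 1.09 log2 units for Krt6b and 4.05 ± 0.52 for Krt16 (limma, ± SE from the spread of the KO_CTRL and KO_IMQ array pairs), with an adjusted p = 0.981 for both. A limma SE, here and below, is also moderated toward a spread estimated over all genes, so it does not come from the gene's own array pairs alone. Krt6a and Krt6b are near-identical genes whose probes may share signal, so their split is uncertain.

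Cornified envelope genes that injury induces followed in part. Sprr1b, a small proline-rich protein cross-linked into the envelope, read 9.55 on KO_Allo, against 6.65 on KO_CTRL and 6.52 on KO_CTRL-B. The controls were 0.13 log2 units apart, and the fitted difference of 2.97 ± 0.16 was the one with the smallest adjusted p of all genes (limma, 0.168). Sprr2d read 6.95 on KO_Allo, against 3.76 on KO_CTRL and 5.21 on KO_CTRL-B. Of the list's 16 measured genes, 11 read higher than both controls and 2 lower (68.8% and 12.5%), with 2 outside on the higher side. Other Sprr2 genes had small gaps or none. Sprr2g read 3.19 on KO_Allo, against 3.24 on KO_CTRL and 3.42 on KO_CTRL-B. Sprr2 genes are close copies, so levels of single members are uncertain. Rptn, which encodes repetin of the granular layer, read 10.20 on KO_Allo, against 6.41 on KO_CTRL and 8.14 on KO_CTRL-B. Gsdmc, a gasdermin of epithelium, read 9.17 on KO_Allo, against 4.73 on KO_CTRL and 6.66 on KO_CTRL-B. In both of these KO_CTRL-B again lay in the middle.

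**Figure D2:**
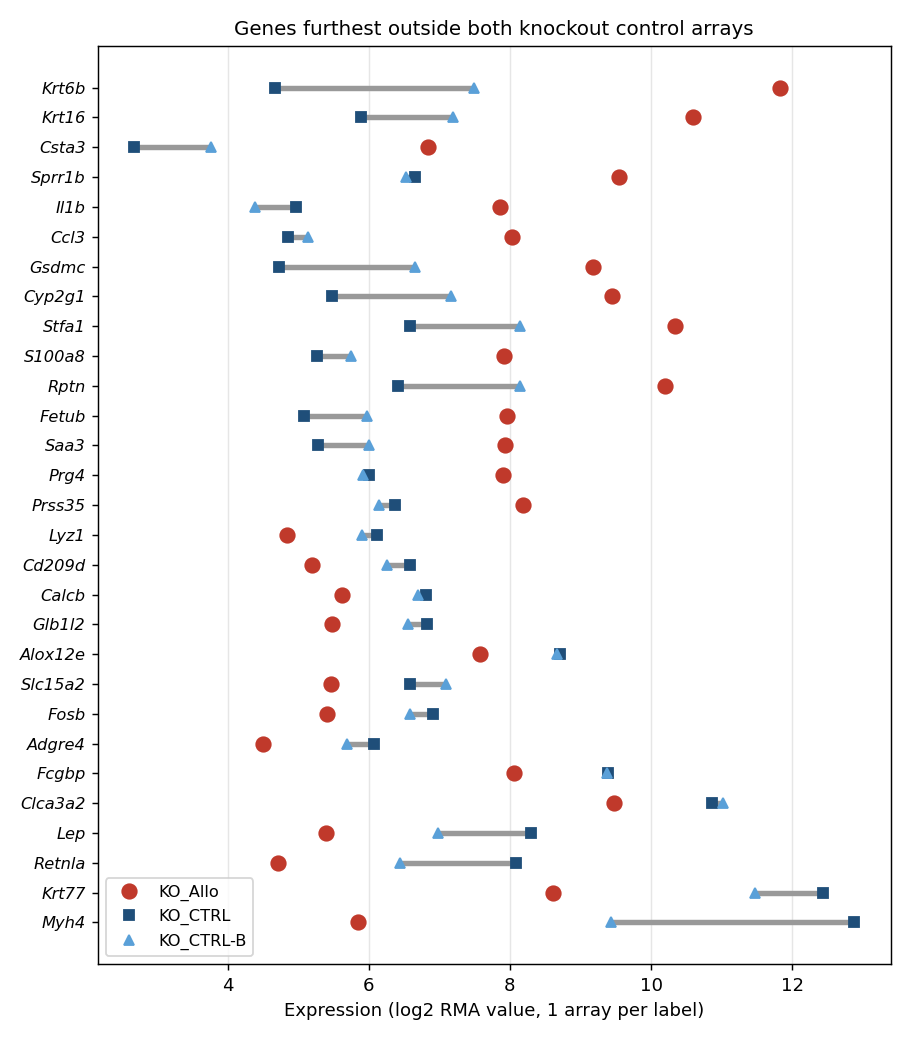
Log2 expression (horizontal axis) of the 15 genes with the largest gaps above and the 14 below both controls, out of those above the median level of all genes on at least 1 of the 3 arrays. Red circles are KO_Allo, dark squares KO_CTRL and light triangles KO_CTRL-B, with 1 array each, and the grey bar spans the 2 controls. Sprr1b, Il1b, Ccl3 and Prg4 have short grey bars and a distant red circle, whereas Krt6b, Gsdmc and Myh4 have long ones. Il1b, Ccl3 and Prg4 lay below the median level of all genes (6.05) on both controls, where differences are compressed, so their short bars may understate the spread.

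Protease inhibitors of the stefin A cluster read high as well. Stfa1 read 10.34 on KO_Allo, against 6.58 on KO_CTRL and 8.14 on KO_CTRL-B. Csta3 read 6.84 on KO_Allo, against 2.67 on KO_CTRL and 3.77 on KO_CTRL-B. The list of stefin A genes and clade B serpins had 4 of 15 members outside on the higher side and 0 on the lower: Stfa1, Csta3, Stfa2l1 and Serpinb3a. Its members did not all go one way, since 9 read higher than both controls and 4 lower (60.0% and 26.7%). Stefin copies are also alike in sequence. Fetub, a cystatin-type inhibitor best known from plasma, read 7.95 on KO_Allo, against 5.08 on KO_CTRL and 5.97 on KO_CTRL-B.

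The late envelope genes of the LCE1 group gave the most uniform list with small gaps. All 11 measured members read higher than both controls (100.0%, against 32.4% of all genes), while 0 lay outside by the rule. Lce1f read 9.78 on KO_Allo, against 7.78 on KO_CTRL and 9.09 on KO_CTRL-B. Lce1e read 7.14 on KO_Allo, against 4.51 on KO_CTRL and 6.04 on KO_CTRL-B. The list's median difference was 0.85 log2 units, against 0.005 for all genes, and the controls differed by a median of 0.79 in the same direction. LCE1 genes lie in 1 cluster and share sequence, so they are not 11 independent readings.

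Barrier keratins and lipid enzymes went the other way in single genes. Krt77, a suprabasal keratin of resting epidermis, read 8.60 on KO_Allo, against 12.44 on KO_CTRL and 11.47 on KO_CTRL-B, a gap of -2.87. It had the second largest gap on the lower side, and its controls were 0.97 log2 units apart. Alox12e, an epidermal lipoxygenase, read 7.58 on KO_Allo, against 8.72 on KO_CTRL and 8.67 on KO_CTRL-B. In the list of homeostatic differentiation genes, by contrast, 13 of 20 read higher than both controls and 3 lower (65.0% higher), with Rptn outside above and Krt77 outside below. Krt1 read 12.83 on KO_Allo, against 11.74 on KO_CTRL and 11.99 on KO_CTRL-B. Degs2, a desaturase of ceramide synthesis, read 7.12 on KO_Allo, against 5.92 on KO_CTRL and 5.94 on KO_CTRL-B, and was the 1 of 15 lipid and barrier genes outside above, with Alox12e the 1 outside below.

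The promoters of 4 genes whose KO_Allo level stands clear of both controls are shown, 2 higher and 2 lower, since each holds a motif of a factor known in skin. They are the 250 bases before the start, from RefSeq on GRCm38.p6, written 5′ to 3′ on the gene's strand. Capitals mark the match.
Sprr1b, chr3:92438780-92439029, minus strand: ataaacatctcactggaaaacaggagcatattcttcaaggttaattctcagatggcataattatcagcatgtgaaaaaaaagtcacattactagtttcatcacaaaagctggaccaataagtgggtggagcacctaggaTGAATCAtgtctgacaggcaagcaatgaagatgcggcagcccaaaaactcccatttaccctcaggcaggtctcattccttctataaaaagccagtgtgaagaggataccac
Mmp13, chr9:7272264-7272513, plus strand: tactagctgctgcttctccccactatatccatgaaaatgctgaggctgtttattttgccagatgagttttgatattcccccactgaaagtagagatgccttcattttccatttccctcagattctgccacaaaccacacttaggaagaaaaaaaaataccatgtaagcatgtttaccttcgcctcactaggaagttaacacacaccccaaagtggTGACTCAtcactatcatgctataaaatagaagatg
Krt77, chr15:101869706-101869955, minus strand: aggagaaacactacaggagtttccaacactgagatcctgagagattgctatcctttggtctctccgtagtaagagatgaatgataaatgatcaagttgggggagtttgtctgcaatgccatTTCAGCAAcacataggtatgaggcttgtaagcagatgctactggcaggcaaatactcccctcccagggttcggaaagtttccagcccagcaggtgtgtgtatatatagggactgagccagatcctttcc
Lep, chr6:29059971-29060220, plus strand: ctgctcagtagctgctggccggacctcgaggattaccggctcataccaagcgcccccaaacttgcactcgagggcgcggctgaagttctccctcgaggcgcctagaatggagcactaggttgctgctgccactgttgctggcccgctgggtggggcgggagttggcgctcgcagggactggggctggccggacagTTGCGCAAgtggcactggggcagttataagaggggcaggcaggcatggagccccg
In the first and second the capitals are the AP-1 motif TGANTCA, whose first base lies 111 bases before the Sprr1b start and 35 before the Mmp13 start. In the other two they are the C/EBP motif TTGCNNAA, read on either strand, at 129 and 55 bases before the Krt77 and Lep starts. Promoters of 300 bases, 250 before and 50 after the start, were found for 51 of the 65 higher genes and 13 of the 15 lower ones. The AP-1 motif occurred in 6 of the 51 (11.8%) and in 1 of the 13 (7.69%), against 7.39% of 16990 promoters of genes on the array. The C/EBP motif occurred in 7 of the 51 (13.7%) and in 8 of the 13 (61.5%), against 10.2%. An NF-kB motif of 10 bases occurred in 2 of the 51 (3.92%) and 2 of the 13 (15.4%), against 8.98%. The 8 lower genes with the C/EBP letters were Lep, Krt77, Myh4, Retnla, Clca3a2, Adgre4, Lyz1 and Olfr772. These are letter matches that describe the sequences, and whether any factor binds there was not measured.

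Among antimicrobial and acute-phase genes, 11 of 16 read higher than both controls and 1 lower (68.8% and 6.25%), with 4 outside on the higher side. S100a8, a subunit of the alarmin calprotectin, read 7.92 on KO_Allo, against 5.27 on KO_CTRL and 5.74 on KO_CTRL-B. Its partner S100a9 read 7.66 on KO_Allo, against 6.05 on KO_CTRL and 6.01 on KO_CTRL-B. Saa3, a serum amyloid A protein made in inflamed tissue, read 7.92 on KO_Allo, against 5.28 on KO_CTRL and 6.00 on KO_CTRL-B. Wfdc12, a secreted protein of the antiprotease family, was the fourth. Lcn2 and the beta-defensin gene Defb4, known targets of IL-22 and IL-17, lay between the controls. Lcn2 read 6.26 on KO_Allo, against 6.47 on KO_CTRL and 6.14 on KO_CTRL-B, and Defb4 read 6.19 on KO_Allo, against 6.07 on KO_CTRL and 6.26 on KO_CTRL-B.

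In the IL-1 and IL-36 family 10 of 11 genes read higher than both controls and 1 lower (90.9% and 9.09%), with a median difference of 0.68 log2 units. Il1b, the inducible inflammatory cytokine, read 7.86 on KO_Allo, against 4.96 on KO_CTRL and 4.39 on KO_CTRL-B, and was the 1 member outside. KO_Allo stood far above both, and the controls were 0.58 apart with KO_CTRL-B the lower. Il33, an alarmin of barrier cells, read 8.31 on KO_Allo, against 7.43 on KO_CTRL and 6.61 on KO_CTRL-B. IL-36 alpha, annotated as Il1f6, read 7.66 on KO_Allo, against 6.67 on KO_CTRL and 7.30 on KO_CTRL-B. The member that read lower was Il1r2, the decoy receptor that binds IL-1 without signalling, with 7.37 on KO_Allo, against 8.44 on KO_CTRL and 7.97 on KO_CTRL-B.

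Chemokines were less uniform. Ccl3, a chemokine of activated myeloid cells, read 8.03 on KO_Allo, against 4.85 on KO_CTRL and 5.14 on KO_CTRL-B, and was the 1 of 8 neutrophil chemoattractants outside. Cxcl2 lay just short of the bound, with 6.45 on KO_Allo, against 5.04 on KO_CTRL and 5.46 on KO_CTRL-B. Cxcl1 read 5.58 on KO_Allo, against 5.26 on KO_CTRL and 5.54 on KO_CTRL-B. Of 14 chemokines for monocytes and T cells, 6 read higher than both controls and 2 lower, and 0 lay outside. The NF-kB and TNF response list, which shares inducers with Il1b, ran the other way in counts: 2 of 10 read higher and 6 lower (20.0% and 60.0%), with a median difference of -0.16.

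Markers of myeloid cells read higher in part. Of 17 neutrophil genes, 11 read higher than both controls and 4 lower (64.7% and 23.5%), with 5 outside above. Those 5 were S100a8 and S100a9, already given, with Clec4d, Clec4e and Trem1, receptors that amplify myeloid activation. Clec4d read 6.41 on KO_Allo, against 4.83 on KO_CTRL and 4.84 on KO_CTRL-B. Clec4e read 6.05 on KO_Allo, against 4.64 on KO_CTRL and 4.02 on KO_CTRL-B, and Trem1 read 6.37 on KO_Allo, against 5.37 on KO_CTRL and 5.05 on KO_CTRL-B. The other neutrophil genes had no member outside. Ly6g, a neutrophil surface protein, read 3.49 on KO_Allo, against 3.22 on KO_CTRL and 3.48 on KO_CTRL-B, and Ltf, a granule protein, read 4.77 on KO_Allo, against 5.15 on KO_CTRL and 5.23 on KO_CTRL-B. In bulk skin more cells of a type and more RNA per cell cannot be told apart.

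Macrophage genes gave 8 of 14 higher than both controls and 3 lower (57.1% and 21.4%). Cd14, the endotoxin co-receptor, read 7.30 on KO_Allo, against 5.83 on KO_CTRL and 6.13 on KO_CTRL-B, and lay outside above. Lyz1, a lysozyme gene, read 4.84 on KO_Allo, against 6.11 on KO_CTRL and 5.91 on KO_CTRL-B, and lay outside below. The general macrophage marker Adgre1 read 7.67 on KO_Allo, against 7.12 on KO_CTRL and 7.45 on KO_CTRL-B, while Lyz2 read 9.52 on KO_Allo, against 9.58 on KO_CTRL and 9.56 on KO_CTRL-B. Retnla and Cd209d, both known from alternatively activated or resident macrophages, lay outside below. Retnla read 4.71 on KO_Allo, against 8.08 on KO_CTRL and 6.44 on KO_CTRL-B. Adgre4, a receptor of the same cell family, read 4.50 on KO_Allo, against 6.08 on KO_CTRL and 5.69 on KO_CTRL-B. Cd14 thus stood above both controls, and Lyz1, Retnla, Cd209d and Adgre4 below both.

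Mast cell genes read higher than both controls in 9 of 10 and lower in 1 (90.0% higher), with a median difference of 0.84 log2 units. Hdc, which makes histamine, read 6.35 on KO_Allo, against 5.19 on KO_CTRL and 4.96 on KO_CTRL-B, and was the 1 outside. Cpa3, the granule carboxypeptidase, read 8.72 on KO_Allo, against 7.88 on KO_CTRL and 6.71 on KO_CTRL-B. Mcpt4, a granule chymase, read 6.49 on KO_Allo, against 5.73 on KO_CTRL and 5.08 on KO_CTRL-B. KO_CTRL-B was the lowest of the 3 arrays for these genes, whereas it was the middle one for Krt6a, Krt6b and Krt16. The list median was 6.27 on KO_Allo, against 5.43 on KO_CTRL and 5.03 on KO_CTRL-B. Neutrophils also use Hdc, and the cells it came from were not measured.

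Genes of matrix turnover read higher on KO_Allo. The list's median difference was 0.564 log2 units, and the controls differed by a median of 0.505 in the same direction. Of 11 genes, 10 read higher than both controls and 0 lower (90.9% and 0.0%), with Mmp13, Tnc and Timp1 outside. Mmp13, a collagenase of remodelling tissue, read 6.54 on KO_Allo, against 3.85 on KO_CTRL and 4.90 on KO_CTRL-B. Tnc, the matrix protein tenascin C of healing wounds, read 9.83 on KO_Allo, against 7.07 on KO_CTRL and 8.21 on KO_CTRL-B. Timp1, an inhibitor of these proteases, read 6.35 on KO_Allo, against 4.67 on KO_CTRL and 5.11 on KO_CTRL-B. Collagen chains had 0 outside: 12 of 14 read higher and 1 lower (85.7% and 7.14%), with a median difference of 0.63. For collagens the controls differed by a median of 0.31 in the same direction. Col6a3 read 10.37 on KO_Allo, against 8.90 on KO_CTRL and 9.51 on KO_CTRL-B. The chain that read lower, Col17a1, belongs to the basal keratinocyte's anchoring complex rather than to dermal fibres.

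**Figure D3:**
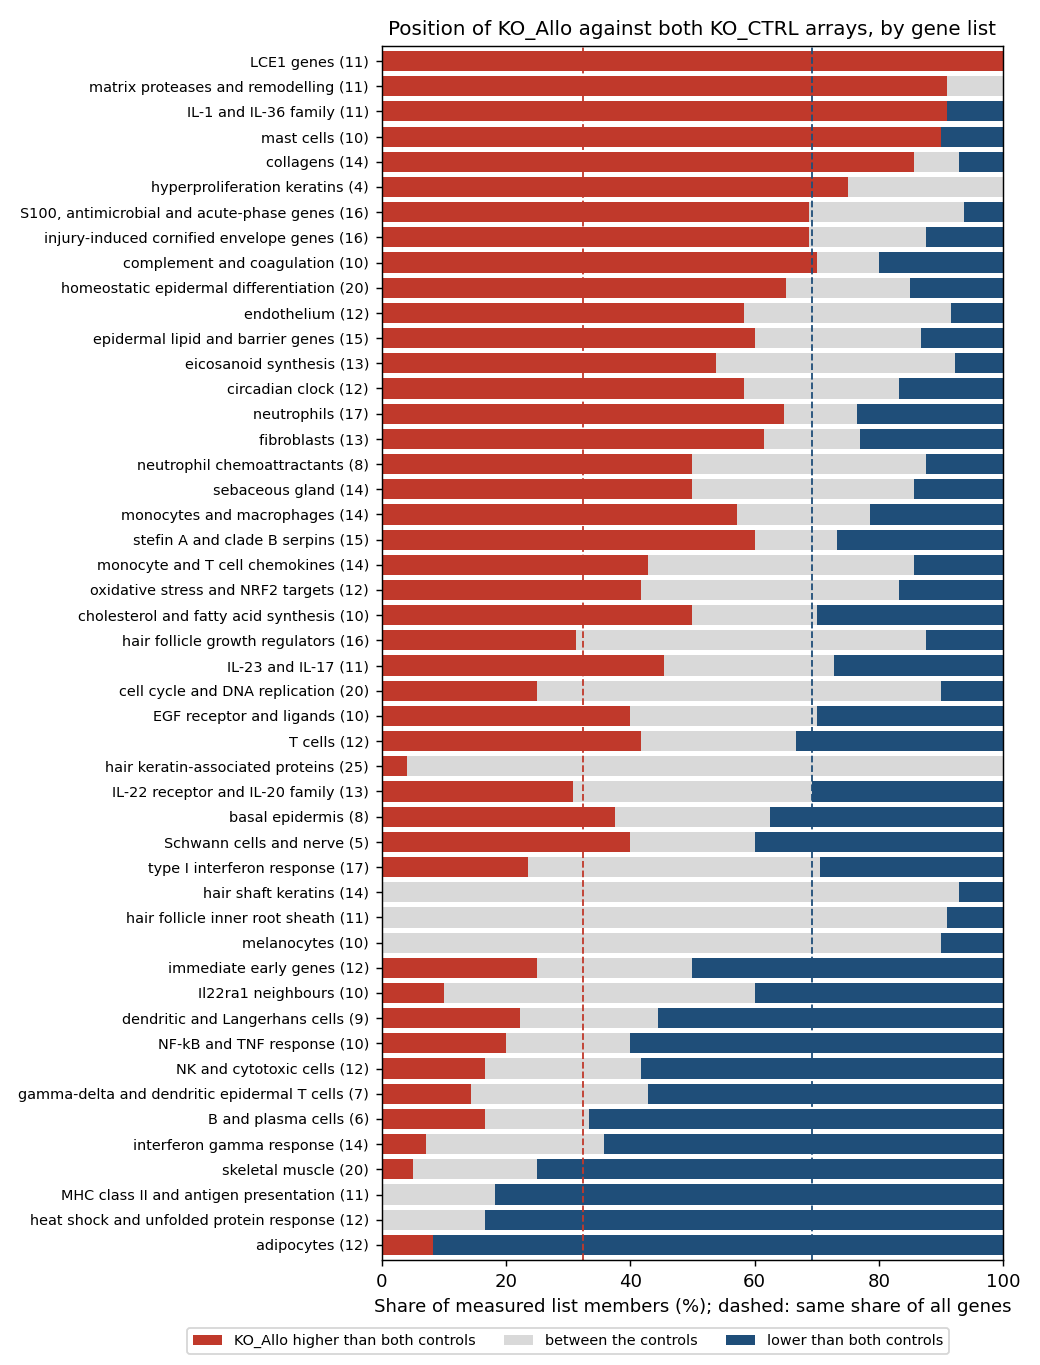
Share of the measured members of each gene list (horizontal axis, %; member count in brackets) for which KO_Allo read higher than both KO_CTRL arrays (red), between them (grey) or lower than both (blue). Dashed lines give the same shares over all genes, 32.4% and 30.7%. LCE1, matrix, IL-1, mast cell and collagen lists lie at the red end, and adipocyte, heat shock, antigen presentation and muscle lists at the blue end, while hair lists are almost wholly grey.

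The activities first described for alloferon concern natural killer cells and interferon, and those lists did not lean to the higher side. Of 12 natural killer and cytotoxic genes, 2 read higher than both controls and 7 lower (16.7% and 58.3%), with 0 outside either way. Klrc3, of the same gene family as Klrc1 and Klrc2 of the list but not in it, lay outside above. It was dim, at 2.81 on KO_Allo, against 1.64 on KO_CTRL and 1.69 on KO_CTRL-B. Ncr1, a receptor specific to these cells, read 4.59 on KO_Allo, against 4.63 on KO_CTRL and 4.25 on KO_CTRL-B. Gzmb, the cytotoxic protease granzyme B, read 3.69 on KO_Allo, against 4.17 on KO_CTRL and 4.23 on KO_CTRL-B. Prf1, the pore protein perforin, read 6.39 on KO_Allo, against 6.47 on KO_CTRL and 6.46 on KO_CTRL-B. Of the 12 genes, 10 lay below the median level of all genes on all 3 arrays, where robust multi-array averaging compresses differences.

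Type I interferon genes gave 4 of 17 higher than both controls and 5 lower (23.5% and 29.4%). Isg15, a ubiquitin-like protein, read 5.40 on KO_Allo, against 4.82 on KO_CTRL and 5.12 on KO_CTRL-B. Mx2, an antiviral GTPase, read 4.44 on KO_Allo, against 5.53 on KO_CTRL and 4.96 on KO_CTRL-B. The interferon gamma list leaned lower, with 1 of 14 higher and 9 lower (7.14% and 64.3%) and a median difference of -0.30. Gbp5, a guanylate-binding protein of that response, read 5.05 on KO_Allo, against 5.95 on KO_CTRL and 5.24 on KO_CTRL-B. Antigen presentation had 0 of 11 higher and 9 lower (0.0% and 81.8%). The MHC class II chain H2-Aa read 7.31 on KO_Allo, against 8.32 on KO_CTRL and 8.08 on KO_CTRL-B, and H2-Ab1 read 8.80 on KO_Allo, against 9.62 on KO_CTRL and 9.33 on KO_CTRL-B. None of these 3 lists had a member outside both controls.

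The IL-22 receptor family stood near the shares of all genes. Of 13 measured genes, 4 read higher than both controls and 4 lower (30.8% each, against 32.4% and 30.7% of all genes), with 0 outside. Il20ra, the receptor chain for IL-20 cytokines, read 6.10 on KO_Allo, against 8.39 on KO_CTRL and 7.10 on KO_CTRL-B, so that its gap was smaller than the difference between the controls. Il22ra2, the soluble protein that captures IL-22, read 4.44 on KO_Allo, against 5.72 on KO_CTRL and 5.36 on KO_CTRL-B. Il22 itself was dim, at 1.49 on KO_Allo, against 1.76 on KO_CTRL and 1.80 on KO_CTRL-B. Stat3, the family's transcription factor, read 9.98 on KO_Allo, against 9.62 on KO_CTRL and 9.58 on KO_CTRL-B. Il24 and Il19, keratinocyte cytokines of the family, read 4.97 and 4.98 on KO_Allo, against 4.69 and 4.64 on KO_CTRL and 4.44 and 4.49 on KO_CTRL-B. Il20rb, a chain shared by receptors of the family, read just below KO_CTRL-B, and Il10rb, Il20, Socs3, Jak1 and Tyk2 lay between the controls. Of 11 genes of the IL-23 and IL-17 pathway, 5 read higher and 3 lower (45.5% and 27.3%), again with 0 outside, and Il17a read 3.81 on KO_Allo, against 4.23 on KO_CTRL and 4.16 on KO_CTRL-B.

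On the lower side, the widest gap was that of Myh4, the fast myosin of skeletal muscle, with 5.85 on KO_Allo, against 12.88 on KO_CTRL and 9.43 on KO_CTRL-B. The KO_CTRL-B minus KO_CTRL difference was -3.45 log2 units, nearly as large as the gap of -3.58. Lep, the fat hormone leptin, read 5.40 on KO_Allo, against 8.29 on KO_CTRL and 6.98 on KO_CTRL-B. Clca3a2, a secreted protein of the chloride channel regulator family, read 9.47 on KO_Allo, against 10.86 on KO_CTRL and 11.02 on KO_CTRL-B. Fcgbp, a mucus-type binding protein, read 8.06 on KO_Allo, against 9.39 on KO_CTRL and 9.38 on KO_CTRL-B. Among 12 immediate early genes, 3 read higher than both controls and 6 lower, with 1 outside. That one, the transcription factor gene Fosb, read 5.41 on KO_Allo, against 6.92 on KO_CTRL and 6.59 on KO_CTRL-B. Clca3a2, Fcgbp and Fosb had controls within 0.33 log2 units of each other, unlike Myh4 and Lep. Slc15a2, Glb1l2, Calcb and the dim olfactory receptor Olfr772 complete the 15 with Krt77, Alox12e, Retnla, Adgre4, Cd209d and Lyz1.

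Tissue content differed between the controls. The median of 20 muscle genes was 8.75 on KO_Allo, against 10.82 on KO_CTRL and 8.86 on KO_CTRL-B, and 15 of the 20 read lower than both controls (75.0%). The median of 12 fat cell genes was 6.83 on KO_Allo, against 8.40 on KO_CTRL and 7.50 on KO_CTRL-B, with 11 lower than both (91.7%). Myh4 and Lep were the only members of these lists outside both controls. Heat shock and unfolded protein genes also read lower in 10 of 12 (83.3%), with a median of 8.31 on KO_Allo, against 9.08 on KO_CTRL and 8.71 on KO_CTRL-B. The part of fat and muscle content in any other gene was not tested.

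Hair follicle content lay between the controls. The median of 25 hair keratin-associated protein genes was 7.24 on KO_Allo, against 4.61 on KO_CTRL and 8.62 on KO_CTRL-B. Of these genes 24 lay between the controls, as did 13 of 14 hair shaft keratins, 10 of 11 inner root sheath genes and 9 of 10 melanocyte genes. Krt71, an inner root sheath keratin, read 11.65 on KO_Allo, against 9.66 on KO_CTRL and 12.18 on KO_CTRL-B. None of the 65 higher or 15 lower genes belonged to a hair or melanocyte list. The rule could hardly call such genes, since the gap must exceed the difference between the controls. The median KO_CTRL-B minus KO_CTRL difference was 4.12 for keratin-associated proteins, 2.93 for hair shaft keratins, 2.51 for inner root sheath and 1.57 for melanocyte genes. Of 12 T cell genes, 5 read higher than both controls and 4 lower (41.7% and 33.3%). Cd3e read 6.38 on KO_Allo, against 7.33 on KO_CTRL and 6.63 on KO_CTRL-B, while Cd4 read 6.29 on KO_Allo, against 5.33 on KO_CTRL and 5.20 on KO_CTRL-B.

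**Figure D4:**
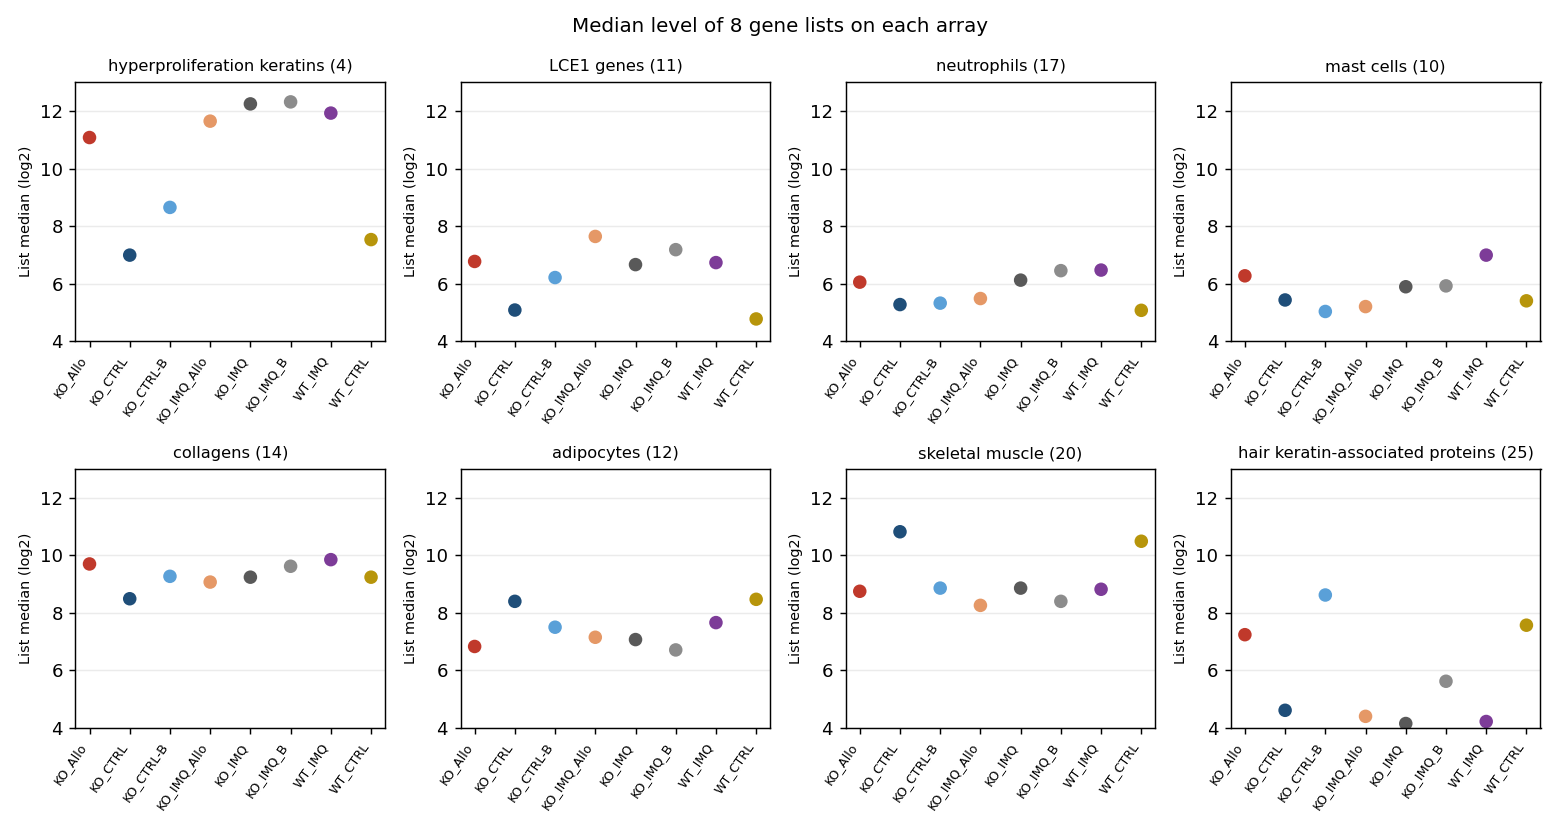
Median log2 level (vertical axis) of 8 gene lists on each of the 8 arrays, with 1 point per array and the number of measured members in brackets. Wound keratins are high on KO_Allo and on every IMQ array, mast cell genes are high on KO_Allo but not on KO_IMQ_Allo, and muscle and hair medians differ between KO_CTRL and KO_CTRL-B.

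The genes high on KO_Allo were set beside imiquimod on wild-type skin, a comparison that shares no array with it. Of the 65 higher genes, 55 read higher on WT_IMQ than on WT_CTRL (47.4% of all genes did) and 49 did so by 1 log2 unit or more (2.5% of all genes). Their median WT_IMQ minus WT_CTRL difference was 2.31 log2 units. Of the 15 lower genes, 13 read lower on WT_IMQ (52.5% of all genes did), 8 of them by 1 log2 unit or more (2.12% of all genes), and the median difference was -1.24. Krt6b read 12.44 on WT_IMQ and 5.00 on WT_CTRL, Il1b 8.54 on WT_IMQ and 4.91 on WT_CTRL, and Krt77 6.32 on WT_IMQ and 12.04 on WT_CTRL. Over the 22180 genes, which share arrays and are no replicates, the KO_Allo minus KO_CTRL difference and the WT imiquimod difference had a Pearson r of 0.421 and a Spearman rho of 0.282. Of the 65, 10 read lower on WT_IMQ than on WT_CTRL, Nradd among them. It read 8.48 on KO_Allo, against 7.12 on KO_CTRL and 7.16 on KO_CTRL-B, with 6.91 on WT_IMQ and 7.19 on WT_CTRL.

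On the KO_IMQ arrays, which had imiquimod without alloferon, many of these genes read higher still. KO_Allo lay below both KO_IMQ arrays for 38 of the 65 (36.2% of all genes), between them for 7 and above both for 20 (37.4% of all genes). The 65 were picked by a high KO_Allo value, so the choice itself bears on these counts. The shares of all genes are therefore not a like background. S100a8 read 7.92 on KO_Allo, with 11.92 on KO_IMQ and 11.52 on KO_IMQ_B. Sprr2d read 6.95 on KO_Allo, with 10.69 on KO_IMQ and 10.39 on KO_IMQ_B, and S100a9 7.66 on KO_Allo, with 11.67 on KO_IMQ and 11.08 on KO_IMQ_B. For these the KO_Allo level was nearer to the KO_CTRL skin than to the imiquimod skin. For others it lay just below the KO_IMQ range, as for Il1b and Gsdmc, or within it, as for Ccl3. Il1b read 7.86 on KO_Allo, with 7.89 on KO_IMQ and 8.68 on KO_IMQ_B, Gsdmc 9.17 on KO_Allo, with 9.40 on KO_IMQ and 9.77 on KO_IMQ_B, and Ccl3 8.03 on KO_Allo, with 6.47 on KO_IMQ and 8.39 on KO_IMQ_B. Cyp2g1, a cytochrome P450, exceeded it, with 9.45 on KO_Allo, 8.10 on KO_IMQ and 7.66 on KO_IMQ_B. These differences from KO_CTRL use the same control arrays for both treatments, so only levels are given.

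**Figure D5:**
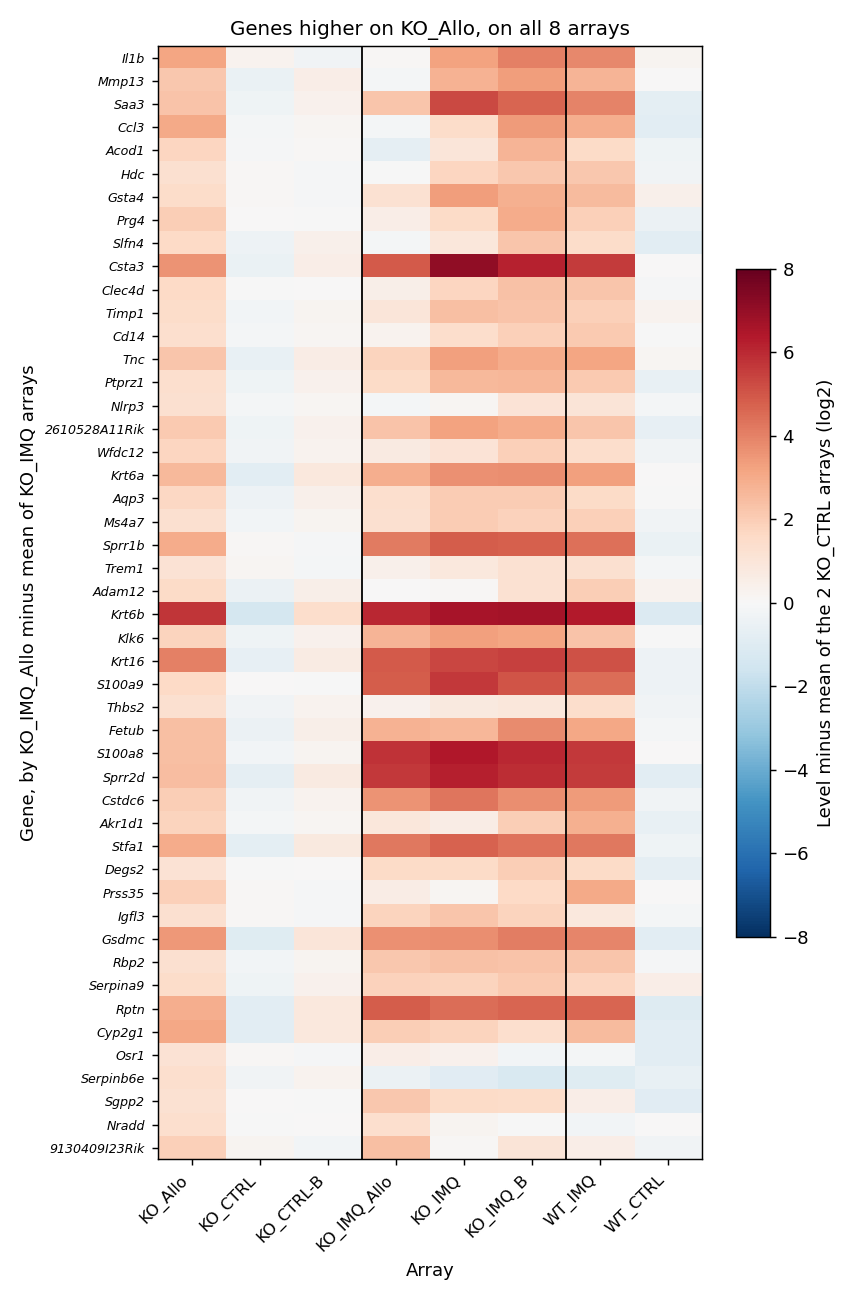
Heat map of the 48 genes, among the 65 that read higher on KO_Allo, that were above the median level of all genes on at least 1 of KO_Allo, KO_CTRL and KO_CTRL-B. Columns are the 8 arrays, and colour is the log2 level minus the mean of the 2 KO_CTRL arrays. Rows run from genes that read lowest on KO_IMQ_Allo relative to the KO_IMQ arrays, at the top, to the highest at the bottom. Il1b, Mmp13, Ccl3, Acod1 and Hdc are pale on KO_IMQ_Allo and red on KO_Allo, and Krt6b, Krt16 and Sprr1b are red on both.

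The KO_IMQ_Allo array, set against the KO_IMQ arrays, read on the opposite side for many of the same genes. KO_IMQ_Allo read lower than both KO_IMQ arrays for 47 of the 65 (35.3% of all genes did) and higher than both for 10 (36.2% of all genes). By the same gap rule 13 lay outside below (0.275% of all genes) and 3 outside above (0.189%). The 13 were Il1b, Mmp13, Saa3, Tmprss11b, Hdc, Gsta4, Clec4e, Timp1, Clec4d, Tnc, Csta3, Cd14 and Ptprz1. The 3 above, and so higher in both settings, were Nradd, 9130409I23Rik and the dim Klrc3. Nradd read 8.47 on KO_IMQ_Allo, against 7.33 on KO_IMQ and 7.12 on KO_IMQ_B. Il1b read 4.78 on KO_IMQ_Allo, against 7.89 on KO_IMQ and 8.68 on KO_IMQ_B. Mmp13 read 4.23 on KO_IMQ_Allo, against 7.15 on KO_IMQ and 7.74 on KO_IMQ_B, and Ccl3 read 4.86 on KO_IMQ_Allo, against 6.47 on KO_IMQ and 8.39 on KO_IMQ_B. For 13 of the 65, KO_IMQ_Allo was at or below the higher KO_CTRL array. Among them were Il1b, Ccl3, Mmp13, Clec4e and Hdc, with Acod1, Slfn4 and Nlrp3, genes of activated myeloid cells. The rest were Serpinb6e, Adam12 and the dim olfactory receptors Olfr774, Olfr918 and Olfr955. The same share over all genes was not counted, so these 13 genes are described by their levels only. Nlrp3, the inflammasome sensor, read 6.12 on KO_Allo and 4.65 on KO_IMQ_Allo, with 4.97 on KO_IMQ, 5.92 on KO_IMQ_B, 4.68 on KO_CTRL and 4.96 on KO_CTRL-B.

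The wound keratins were also lower than both KO_IMQ arrays, but by less than 1 log2 unit, with gaps of -0.54 for Krt6b, -0.48 for Krt16 and -0.71 for Krt6a, and they stayed above both KO_CTRL arrays. Krt6b read 11.83 on KO_Allo and 12.12 on KO_IMQ_Allo, with 12.66 on KO_IMQ and 12.71 on KO_IMQ_B, and Sprr1b read 9.55 on KO_Allo and 10.75 on KO_IMQ_Allo, with 11.43 on KO_IMQ and 11.38 on KO_IMQ_B. Higher on KO_Allo than both KO_CTRL arrays and lower on KO_IMQ_Allo than both KO_IMQ arrays were 11.6% of all genes. By list the same count was 9 of 11 matrix genes, 8 of 10 mast cell genes, 3 of 4 hyperproliferation keratins, 9 of 14 collagens, 10 of 16 injury-induced envelope genes, 10 of 17 neutrophil genes, 8 of 14 macrophage genes and 8 of 16 antimicrobial genes. Higher than both arrays in each setting were 12.1% of all genes and 11 of 11 LCE1 genes. Lower than both in each setting were 10.9% of all genes and 10 of 20 muscle genes. Lce1f read 10.48 on KO_IMQ_Allo, against 9.80 on KO_IMQ and 9.93 on KO_IMQ_B. The limma contrast given next contains the KO_Allo minus KO_CTRL difference by which its genes were picked, so part of each value was set beforehand. The other part, KO_IMQ_Allo minus the mean of the KO_IMQ arrays, was -3.50 for Il1b, -2.74 for Saa3, -0.65 for Sprr1b and 1.75 for Krt77. The alloferon difference with imiquimod minus that without it was -6.69 ± 0.57 log2 units for Il1b (limma, ± SE, adjusted p = 0.521), -5.02 ± 0.57 for Saa3 (adjusted p = 0.521) and -3.62 ± 0.23 for Sprr1b, which had the smallest adjusted p (0.351). It was 5.10 ± 0.58 for Krt77 (adjusted p = 0.521), which read 8.20 on KO_IMQ_Allo, against 6.36 on KO_IMQ and 6.55 on KO_IMQ_B. In limma 0 genes passed this test of the difference, and 1212 had an unadjusted p under 0.05. Across all genes the 2 alloferon differences had a Pearson r of -0.08 and a Spearman rho of -0.007.

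At the edge of the rule, just inside it, lay Trem1, with a gap of 1.00, Ptprz1, with 1.02, and Thbs2, a matrix protein, which read 10.97 on KO_Allo, against 9.41 on KO_CTRL and 9.93 on KO_CTRL-B. Just outside the rule lay Cxcl2, with a gap of 0.99, Ptgs2, the inducible cyclooxygenase, with 0.99, Lce3e, with 0.97, and Mmp11, with 0.96. Ptgs2 read 7.54 on KO_Allo, against 6.56 on KO_CTRL and 5.60 on KO_CTRL-B. Below the controls, Fos, with a gap of -0.99, and Cidec, a fat droplet protein, were just short of the rule. Of the 65 higher genes, 17 lay below the median level of all genes on all 3 arrays, and 5 of these were olfactory receptors. Another 25 were above it on KO_Allo and below it on both controls, Csta3, Il1b, Ccl3 and Prg4 among them. At such levels the difference between the controls may be compressed too.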

How the data were processed

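Total RNA of dorsal skin (100 ng per sample) was hybridised to 8 Affymetrix arrays, 1 per title. The authors deposited log2 values for 41345 probe sets, for which the submitters' processing notes name RMA (robust multi-array averaging), Affymetrix Power Tools and, with no role, R 3.3.2. RMA puts all arrays on 1 distribution, which hides a shift of most genes together, and it compresses dim genes. Array medians differed by 0.05 log2 units. The number of arrays, not a read depth, limits the precision. No array pair was identical. Nothing says that arrays of 1 group hold separate animals, so p-values measure only the spread between arrays, which may be technical.

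Gene symbols of probe sets came from the platform annotation (23521 with 1 symbol, 1814 with several, 16010 with none), and 21994 genes were matched to RefSeq by Entrez identifier, with 0 symbols changed. The probe set with the highest mean stood for a gene, which gave 22180. Gaps were computed in Python 3.11.15. limma 3.58.1 in R 4.3.3 was fitted to all 8 arrays in 6 groups, with KO_CTRL and KO_CTRL-B as 1 group and KO_IMQ and KO_IMQ_B as another (2 residual degrees of freedom), with Benjamini-Hochberg adjustment over all genes, and was tested on simulated data. A call needed an adjusted p under 0.05.

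Named genes were the 15 largest gaps each way above the median level of all genes (6.05) on at least 1 of the 3 arrays, leaving out clone-type symbols and olfactory receptors, all members of the IL-22 receptor and natural killer lists, and up to 4 members of each of 49 gene lists. Others, such as Acod1, Slfn4 and Nlrp3, were chosen after their values were seen. Members and lists were chosen with earlier results of these data known. The red blood cell list had 1 measured member and was not used further. Lists not mentioned had 0 members outside both controls, except oxidative stress, with 1 (Gsta4).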

Additional observations from a re-analysis of the deposited data

How the results depend on the processing

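The counts outside both controls, 65 higher and 15 lower, were 65 and 15 with the mean over a gene's probe sets, 62 and 16 with arrays centred on their medians, 68 and 21 with a gap of 1 log2 unit alone, and 54 and 12 where KO_Allo also had to stand 1 log2 unit beyond WT_CTRL, an alternative chosen after seeing the data. With only genes whose mean over the 8 arrays was above the median of such means they were 39 and 11. Leaving out 1 control removes the yardstick and leaves a plain difference from the other array, which 125 to 354 genes exceeded on the higher side and 151 to 345 on the lower. The smaller counts are those against KO_CTRL-B. limma called 0 genes for KO_Allo against KO_CTRL in every setting run, with a smallest adjusted p of 0.0576 (trended and robust prior) to 1.0 (only the 3 arrays in the fit), and 0 genes for the alloferon difference with imiquimod minus that without, with 0.126 to 0.411. With the letter B as a replicate block the counts were also 0, with smallest adjusted p of 0.0594 and 0.247 and 1 residual degree of freedom. The labels give no pairing. Across genes, KO_CTRL-B minus KO_CTRL correlated with KO_IMQ_B minus KO_IMQ at r = 0.332, over 2 pairs. Of 49 list medians, 10 changed sign without KO_CTRL, 4 without KO_CTRL-B, 1 with centred arrays and 0 with the mean over probe sets. Of 220 named genes the difference changed sign in 13, 9, 1 and 0.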

Other observations

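Several genes not described above stood clear of both controls on KO_Allo. Aqp3, the water and glycerol channel of keratinocytes, read 10.75 on KO_Allo, against 8.66 on KO_CTRL and 9.52 on KO_CTRL-B. Klk6, an epidermal kallikrein protease, read 8.59 on KO_Allo, against 6.41 on KO_CTRL and 7.15 on KO_CTRL-B. Adam12, a metalloprotease of remodelling tissue, read 8.82 on KO_Allo, against 6.82 on KO_CTRL and 7.72 on KO_CTRL-B, with 7.28 on KO_IMQ_Allo. Prg4, which encodes the lubricant lubricin, read 7.90 on KO_Allo, against 6.00 on KO_CTRL and 5.92 on KO_CTRL-B, and 6.47 on KO_IMQ_Allo, with 7.49 on KO_IMQ and 8.91 on KO_IMQ_B. These genes, Prg4 aside, were chosen after their values were seen.

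The circadian clock list gave 7 of 12 genes higher than both controls and 2 lower (58.3% and 16.7%), with 0 outside. In 7 of the 12, KO_Allo read higher than both KO_CTRL arrays and KO_IMQ_Allo higher than both KO_IMQ arrays, and in 2 both read lower, against 12.1% and 10.9% of all genes. Per3, a clock repressor, read 7.55 on KO_Allo, against 6.94 on KO_CTRL and 7.08 on KO_CTRL-B, and 7.44 on KO_IMQ_Allo, against 6.48 on KO_IMQ and 6.74 on KO_IMQ_B. Arntl, which encodes the activator BMAL1, read 7.78 on KO_Allo, against 8.85 on KO_CTRL and 8.22 on KO_CTRL-B, and 8.11 on KO_IMQ_Allo, against 8.62 on KO_IMQ and 8.40 on KO_IMQ_B. The hour at which skin was taken was not stated in the labels.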
